A study of Mus musculus with 11 samples.

Results

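The SLAM receptor genes *Ly9*, *Slamf7*, *Cd48*, *Slamf1*, *Cd84* and *Slamf6*, and *Sh2d1a*, which encodes the adaptor SAP, were examined in the open chromatin of 4 mouse lymphoid populations. The members were the ATAC-seq peaks of 9 libraries that overlapped a gene body extended by 20 kb on each side, a peak between neighbouring genes being counted once. Of 298164 peaks in all libraries, 148 lay in these windows, and after merging of overlapping peaks they formed 37 of 71400 intervals. ATAC-seq cuts accessible DNA with a transposase, and a peak marks a stretch where cuts accumulate. The libraries came from C57BL/6 mice aged 4 to 8 weeks. The thymic libraries were of CD4 single-positive (CD4SP) thymocytes (2 libraries) and of NKT thymocytes (2 libraries). The bone marrow libraries were of common lymphoid progenitors (CLP, 3 libraries), sorted as lineage-negative IL-7Rα+ cells with intermediate cKit and Sca-1 and high Flt3, and of innate lymphoid cell precursors (ILCP, 2 libraries), sorted as lineage-negative IL-7Rα+ α4β7+ cells carrying the eGFP of a *Zbtb16* reporter. Cell type and tissue are tied in this design, so a difference between thymus and marrow cannot be told apart from one between mature T cells and progenitors.

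SLAM receptors are immunoglobulin-like proteins of haematopoietic cells. Most bind their own kind on a neighbouring cell, while CD48 is a lipid-anchored ligand of the receptor 2B4. SAP binds the cytoplasmic tails of SLAM receptors and recruits the kinase Fyn, and NKT cells need SAP, and SLAMF1 and SLAMF6 on neighbouring thymocytes, to develop.

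The sequences of 6 intervals and 1 promoter are shown because the results turn on them. Each interval is given by the central 200 bases of the merged interval on the plus strand of mm10, and the promoter by the 250 bases before the RefSeq start of *Slamf1* in GRCm38.p6. Capitals mark matches on either strand to short core motifs of factors active in lymphocytes, namely Runx (TGTGGT or TGCGGT), ETS (AGGAAG), TCF (CTTTGA), E-protein (CAGCTG or CAGGTG), zinc-finger factors of the GATA family (AGATAA), Egr (GTGGGCG), AP-1 (TGANTCA) and T-box (GGTGTGA). Matches to different motifs were allowed to overlap. Intron 4 and intron 3 of *Slamf1* (chr1:171788987-171789186 and chr1:171782588-171782787) were open in all thymic libraries and in no marrow library.
Slamf1, 22.0 kb downstream of the start: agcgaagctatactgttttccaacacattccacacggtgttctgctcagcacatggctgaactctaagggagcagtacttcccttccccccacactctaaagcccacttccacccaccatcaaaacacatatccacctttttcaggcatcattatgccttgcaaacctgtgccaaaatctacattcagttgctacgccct
Slamf1, 15.6 kb downstream of the start: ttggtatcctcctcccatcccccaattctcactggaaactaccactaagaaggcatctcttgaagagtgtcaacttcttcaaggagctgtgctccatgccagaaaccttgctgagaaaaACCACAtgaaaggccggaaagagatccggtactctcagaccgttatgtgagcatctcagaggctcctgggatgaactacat
The *Slamf1* promoter (chr1:171766882-171767131) had a peak in the same 4 thymic libraries.
Slamf1 promoter: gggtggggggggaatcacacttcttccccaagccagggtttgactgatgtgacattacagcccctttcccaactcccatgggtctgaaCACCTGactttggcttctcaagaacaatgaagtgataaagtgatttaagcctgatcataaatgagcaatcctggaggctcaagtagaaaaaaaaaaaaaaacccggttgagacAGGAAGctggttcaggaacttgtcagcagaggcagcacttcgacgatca
The regions beyond the 3′ end of *Slamf6* and before its start (chr1:171961645-171961844 and chr1:171916132-171916331) were open in NKT cells alone, in both of their libraries.
Slamf6, 44.2 kb downstream of the start: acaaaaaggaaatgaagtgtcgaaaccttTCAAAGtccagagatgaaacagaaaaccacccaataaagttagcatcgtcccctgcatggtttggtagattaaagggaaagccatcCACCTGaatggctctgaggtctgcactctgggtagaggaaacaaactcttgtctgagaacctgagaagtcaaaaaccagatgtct
Slamf6, 1.3 kb upstream of the start: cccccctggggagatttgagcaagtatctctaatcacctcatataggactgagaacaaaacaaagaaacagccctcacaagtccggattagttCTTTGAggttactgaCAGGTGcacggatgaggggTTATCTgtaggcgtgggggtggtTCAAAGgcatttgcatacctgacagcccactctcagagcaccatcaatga
Intron 2 of *Cd84* and intron 2 of *Slamf7* (chr1:171845229-171845428 and chr1:171643741-171643940) were open in both ILCP libraries and all thymic libraries and in no CLP library. *Slamf7* lies on the minus strand, and its sequence is printed on the plus strand like the others.
Cd84, 5.6 kb downstream of the start: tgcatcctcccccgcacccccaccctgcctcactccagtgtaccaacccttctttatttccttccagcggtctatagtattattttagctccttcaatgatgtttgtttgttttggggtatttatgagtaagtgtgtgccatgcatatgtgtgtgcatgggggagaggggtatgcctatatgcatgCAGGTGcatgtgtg
Slamf7, 9.2 kb downstream of the start: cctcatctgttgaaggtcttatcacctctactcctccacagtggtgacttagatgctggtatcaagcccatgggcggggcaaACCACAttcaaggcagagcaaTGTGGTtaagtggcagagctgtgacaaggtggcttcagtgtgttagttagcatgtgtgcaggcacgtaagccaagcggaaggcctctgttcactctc

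The library lists held from 19343 to 41535 peaks. CLP replicate 1 stood apart: it held the fewest peaks, and its member intervals were shared with CLP replicates 2 and 3 at 0.25 and 0.235 of those open in either library, against 0.833 between replicates 2 and 3. Results on CLP are therefore also given without it where this was computed. Start sites, taken with 1 kb on either side, were checked against markers. Of 5 T lineage markers, *Cd3e*, *Cd3d* and *Cd3g*, like *Cd4*, carried a peak in all 4 thymic libraries and in no marrow library, while *Cd5* also carried one in the 3 CLP libraries and *Lck* in all 9 libraries. *Rag1* carried one in the 3 CLP libraries only, *Flt3* in the 3 CLP and 2 ILCP libraries, and *Dntt* in 2 CLP and 1 CD4SP libraries. Of the ILCP list, *Id2*, *Gata3* and *Pdcd1* did not separate the groups, with a peak in 9 libraries each, and *Il7r* had one in 8. *Zbtb16* carried one in both NKT and both ILCP libraries, in 1 CLP library and in no CD4SP library. Markers of other cells were partly open: of the B lineage list, *Pax5* and *Cd79a* had a start-site peak in 0 libraries and *Ebf1* in 9. Of the myeloid list, *Cebpa* had one in 8 libraries, *Spi1* in the 3 CLP libraries, and *Csf1r* and *Mpo* in 1 CLP library each. *Klrb1c*, an NK receptor gene also used for NKT cells, had none in any library, *Tbx21* had one in 1 NKT library, *Il2rb* in the 4 thymic libraries, and *Tcf7*, listed for ILCP, had one in the CD4SP libraries only.

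The thymic libraries held more peaks in the windows of the 7 genes than the marrow libraries did. CD4SP replicates 1 and 2 had 26 and 26 peaks, NKT replicates 1 and 2 had 26 and 24, CLP replicates 1 to 3 had 4, 16 and 17, and ILCP replicates 1 and 2 had 5 and 4. All thymic libraries were above all marrow libraries, and ILCP lay at the bottom together with CLP replicate 1. The means were 25.5 ± 1 (SD, n = 4) in thymus and 9.2 ± 6.69 (SD, n = 5) in marrow. Relative to the length of each list, the windows held 6.19 to 7.73 of every 10000 peaks in thymus and 1.55 to 4.24 in marrow, again without overlap. In bulk cells, a site open in more cells and a site more open in each cell cannot be told apart. The bases covered told the same order, with 24307 ± 2509 bp (SD, n = 4) in thymus and 8132 ± 6555 bp (SD, n = 5) in marrow. No test was made over the members as a whole, since they were chosen with earlier results of these data known.

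**Figure D1:**
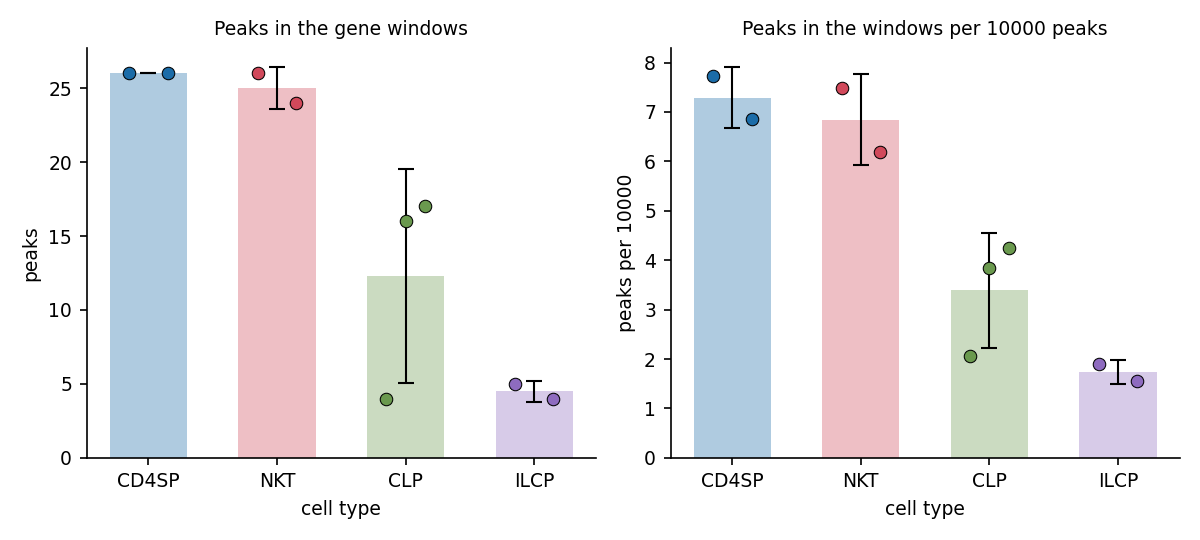
Peaks in the windows of the 7 genes, as a number (left axis panel) and per 10000 peaks of the same library (right panel), by cell type. Points are libraries, bars are means and error bars SD (n = 2 for CD4SP, NKT and ILCP, n = 3 for CLP), and the thymic libraries lie above all marrow libraries in both panels.

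The 37 intervals lay mostly in introns and in the flanks that the 20 kb extension takes in, and 5 covered the start of a principal transcript. Positions were not counted over all intervals. By their centre, 11 lay upstream of a gene, 4 in an exon, 11 in an intron and 11 downstream, and 27 overlapped no exon of any gene. *Slamf6* was nearest to 9 intervals, *Cd84* and *Sh2d1a* to 6 each, *Slamf7* and *Slamf1* to 5 each, *Cd48* to 4 and *Ly9* to 2. Distances are counted from the start of the principal GENCODE M21 transcript to the centre of the interval. The median width was 1091 bp, against 1015 bp over all intervals.

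**Figure D2:**
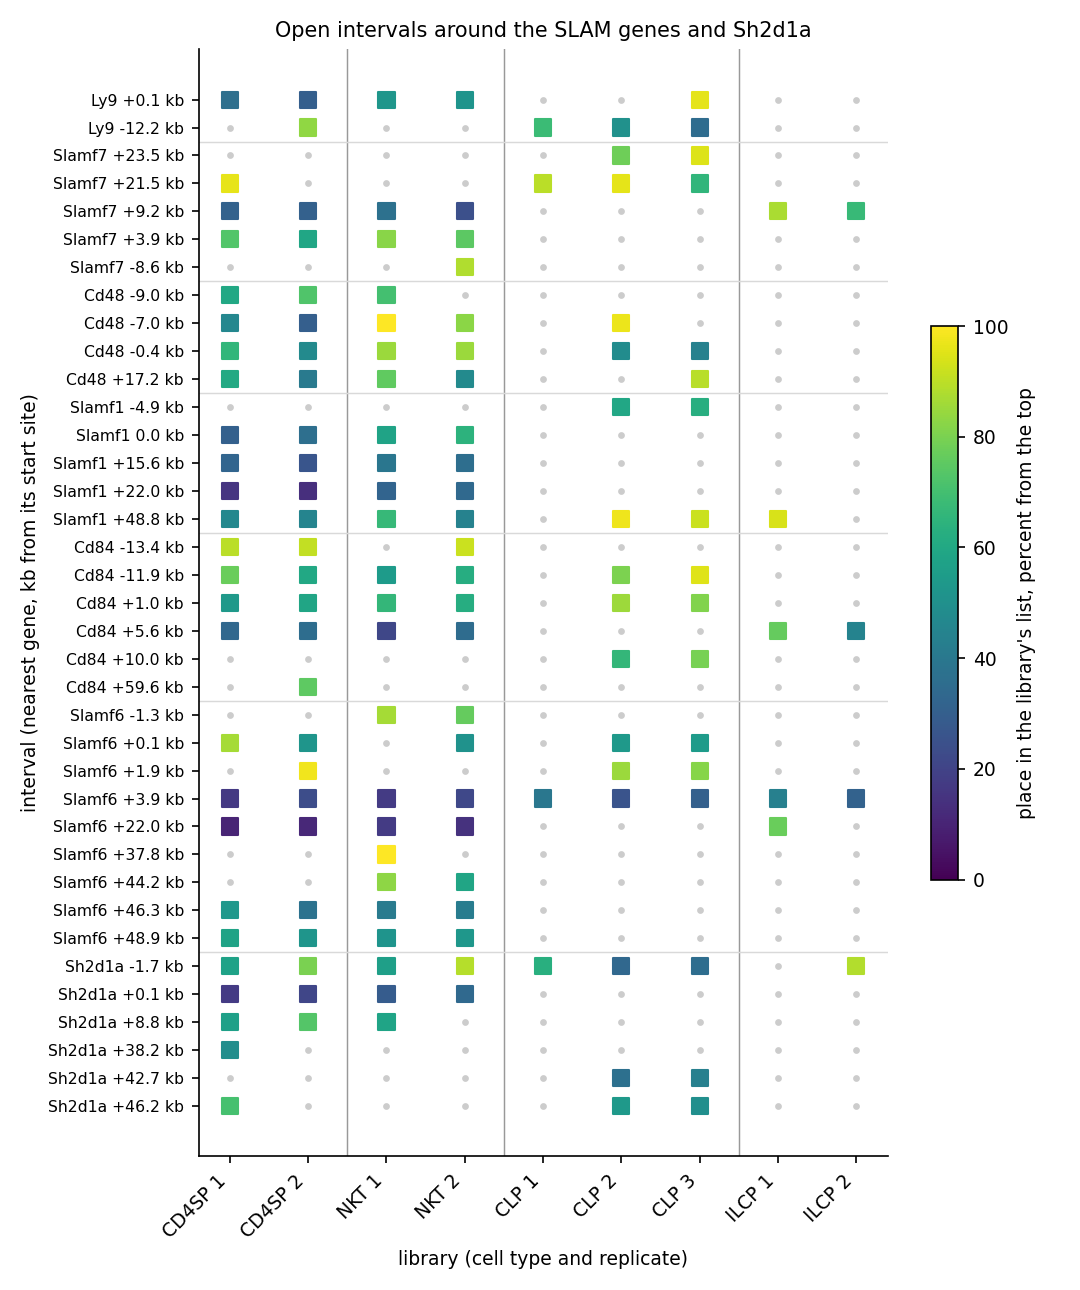
The 37 intervals (lines of the map, by nearest gene and distance in kb from its start site, negative upstream) in each of the 9 libraries (columns). A square marks a peak, coloured by its place in the library's list from 0 (highest score) to 100 percent (lowest), and a grey dot marks no peak. The thymic columns are filled for most genes and the ILCP columns hold 3 intervals in common.

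An interval was called thymus-only when it was open in all 4 thymic libraries and in no marrow library. The class held 7 of the 37 intervals (18.9%), against 7.04% of all intervals. Its intervals were at the start site, intron 3 and intron 4 of *Slamf1*, at an alternative start of *Slamf7*, at the start site of *Sh2d1a*, and at a pair of places 46.3 and 48.9 kb downstream of the *Slamf6* start. The opposite class, open in all marrow libraries and in no thymic library, held 0 of 37, against 2.04%. With looser terms, 16 of 37 (43.2%) were open in at least 1 thymic and no marrow library, against 27% of all intervals, and 4 of 37 (10.8%) in at least 1 marrow and no thymic library, against 33.6%. The intervals open in every thymic library numbered 19 (51.4%, against 33.9%).

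Intervals common to all populations were few at these genes. A single interval of 37 (2.7%) was open in all 9 libraries, against 13.3% of all intervals, and 2 were open in all the others when ILCP replicate 1 was left out. At least 1 ILCP library was open at 6 of 37 intervals (16.2%), against 40.7% of all intervals. Both ILCP libraries were open at 3 of 37 (8.11%), against 29.4%. CLP replicates 2 and 3 were both open at 15 of 37 (40.5%), against 50.2%. These shares are descriptions, and differences from all intervals were not tested.

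**Figure D3:**
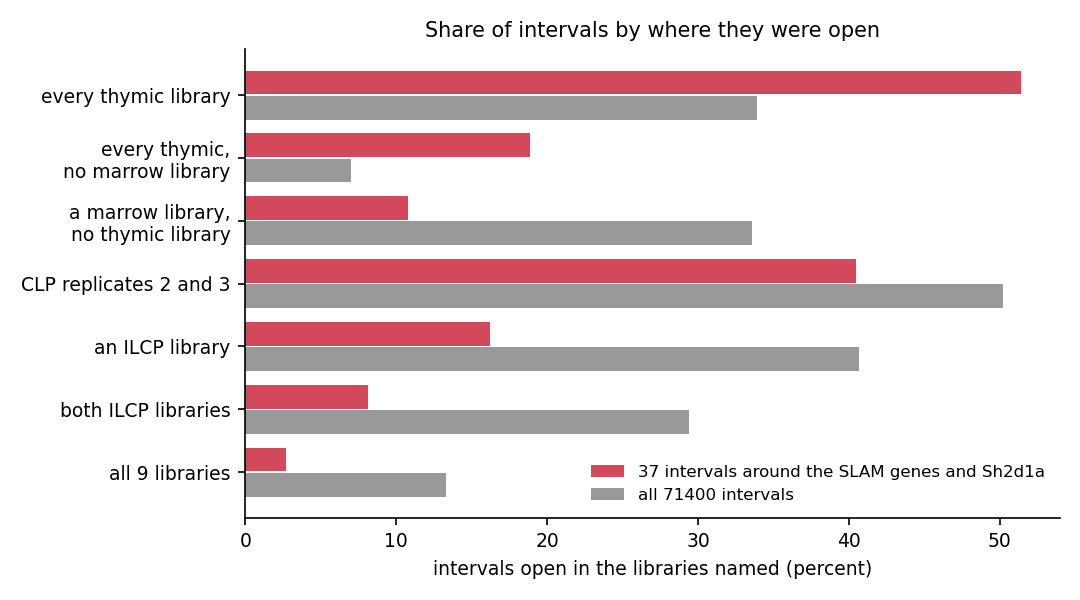
Percent of intervals (horizontal axis) open in the libraries named on the vertical axis, for the 37 intervals around the SLAM genes and *Sh2d1a* and for all 71400. The thymic classes are larger among the 37 intervals (51.4% and 18.9%, against 33.9% and 7.04%) and the ILCP classes smaller (16.2% and 8.11%, against 40.7% and 29.4%).

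At the start sites the genes separated thymus from ILCP. All 7 genes had a peak within 1 kb of an annotated start in both CD4SP libraries, against 47.9% of 21827 protein-coding genes. In both NKT libraries 6 of 7 did, against 48.2%, *Slamf6* having its peak in NKT replicate 2 alone. All 7 genes lacked one in both ILCP libraries, against 55.9% of all genes. Of the 6 genes with a start-site peak in every thymic library, all 6 lacked one in both ILCP libraries, against 16.3% of the 9978 such genes. CLP lay between: *Cd48*, *Cd84* and *Slamf6* had a start-site peak in CLP replicates 2 and 3, *Ly9* in 1 CLP library, and *Slamf7*, *Slamf1* and *Sh2d1a* in none. These last 3 genes were open at the start in every thymic and no marrow library, as were 1.21% of all genes.

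*Slamf1*, the receptor that gave the family its name, had 4 and 4 peaks in CD4SP, 5 and 4 in NKT, 0, 2 and 2 in CLP and 1 and 0 in ILCP. The thymic libraries did not overlap the marrow libraries (4.25 ± 0.5, SD, n = 4, against 1 ± 1, SD, n = 5), a difference of 3.25 peaks with an adjusted p = 0.0618 (exact permutation of the 9 library labels, two-sided, Benjamini-Hochberg over 17708 genes). Its unadjusted p of 0.00794 was the smallest this exact test could give. Peaks were further compared by place in the list, the rank of a peak by score as a percent of its library's peaks, with 0% at the top. The intron 4 interval stood at 15.4% and 13.3% in CD4SP and at 32% and 33.8% in NKT. The intron 3 interval stood at 32.3% and 26.5%, and at 39.4% and 35.8%, and the start-site interval at 30.2% and 36.3%, and at 57.9% and 64.2%. At each of the 3 places both CD4SP libraries were higher in their lists than both NKT libraries, and no marrow library had a peak. In marrow, *Slamf1* had an interval 4.9 kb upstream in CLP replicates 2 and 3 only (59.4% and 62.5%), and one 48.8 kb downstream that all thymic libraries shared with CLP replicates 2 and 3 (97.6% and 92.1%) and ILCP replicate 1 (93.8%).

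*Slamf6*, the homophilic receptor Ly108, had 5 and 7 peaks in CD4SP, 7 and 7 in NKT, 1, 3 and 3 in CLP and 2 and 1 in ILCP. Thymus and marrow did not overlap (6.5 ± 1, SD, n = 4, against 2 ± 1, SD, n = 5), with an adjusted p = 0.0618 by the same exact permutation test. The intron 1 interval 3.9 kb from the start was the only one open in all 9 libraries. It stood at 16.6% and 23.4% in CD4SP, 17.5% and 21.6% in NKT, 39.8%, 25.9% and 30.4% in CLP, and 43.1% and 30.9% in ILCP. By percent every thymic library was higher in its list than every marrow library there. Counted from the top, thymus and marrow overlapped. The rank was 7708 in CLP replicate 1 and 7972 in ILCP replicate 2, against 8889 in CD4SP replicate 2 and 8379 in NKT replicate 2. The interval 22.0 kb from the start, centred in intron 6, was the highest of the members in 3 of the 4 thymic lists and came just after the intron 1 interval in NKT replicate 1, at 9.77% and 11% in CD4SP and 17.5% and 14.2% in NKT. In marrow it was open in ILCP replicate 1 alone, at 77.1%.

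The window of *Slamf6* also held the 2 intervals that were open in both NKT libraries and nowhere else. One lay 1.3 kb upstream (86.7% and 76.3% in NKT replicates 1 and 2) and the other 44.2 kb downstream (83.2% and 58.6%), and both are printed above. Their share of the 37 intervals was 5.41%, against 1.96% of all intervals. They were in the lower part of the NKT lists, and none was left when each list was cut to the length of the shortest, best scores first. Intervals open in both ILCP libraries and nowhere else numbered 0 of 37, against 3.66%. The *Slamf6* start site itself was open at 86.7% and 52.3% in CD4SP, at 50.5% in NKT replicate 2, and at 53.7% and 54.5% in CLP replicates 2 and 3.

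*Cd48*, the gene of the lipid-anchored ligand, had 4 and 4 peaks in CD4SP, 5 and 3 in NKT, 0, 2 and 2 in CLP and 0 and 0 in ILCP. Thymus and marrow did not overlap (4 ± 0.816, SD, n = 4, against 0.8 ± 1.1, SD, n = 5), with an adjusted p = 0.0618 (exact permutation test). No interval of its window was thymus-only, since the start site (48.1% and 43.6%), a place 7.0 kb upstream (97.1%) and one 17.2 kb downstream (89.1%) were each open in at least 1 CLP library, and one 9.0 kb upstream was open in no marrow library but absent from NKT replicate 2. The interval 7.0 kb upstream stood at 46.3% and 30% in CD4SP and at 99.8% and 82.5% in NKT, the widest gap between the means of any interval open in every thymic library. The start-site interval also covered an exon of the neighbouring gene *A630035G10Rik*, so the 2 genes cannot be told apart there.

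*Cd84*, another homophilic receptor, had 4 and 5 peaks in CD4SP, 3 and 4 in NKT, 0, 3 and 3 in CLP and 1 and 1 in ILCP. CD4SP and NKT lay above the marrow libraries except that NKT replicate 1 was level with CLP replicates 2 and 3 (difference 2.4 peaks, adjusted p = 0.155, exact permutation test). Its intron 2 interval stood at 33.4% and 35.2% in CD4SP, 21.1% and 35.1% in NKT, and 76.5% and 44.9% in ILCP, with no peak in CLP. The peak at the 5′ end was centred 1.0 kb into the gene, in exon 2, where alternative transcripts start. It was open in all thymic libraries (53.8% to 66.2%) and in CLP replicates 2 and 3 (85.5% and 81.2%). A further intron 2 interval, 9986 bp from the start, was open in CLP replicates 2 and 3 only, at 66.1% and 79.6%.

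*Slamf7*, whose product is an activating receptor of NK cells, had 4 and 4 peaks in CD4SP, 3 and 3 in NKT, 2, 3 and 3 in CLP and 1 and 1 in ILCP. Thymus and marrow overlapped (adjusted p = 0.223, exact permutation test). Its intron 2 interval stood at 31% and 30.6% in CD4SP, 36.9% and 24.5% in NKT, and 87.4% and 67.5% in ILCP, with no peak in CLP. With the intron 2 interval of *Cd84* it made up the class open in both ILCP and no CLP libraries, 2 of 37 (5.41%) against 6.34% of all intervals. Both were also open in all thymic libraries, a combination held by 1.34% of all intervals. The thymus-only interval 3.9 kb from the principal start covered the RefSeq start of the gene and stood at 72.9% and 59.1% in CD4SP and 82.1% and 74.7% in NKT.

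*Ly9*, the homophilic receptor SLAMF3, had 1 and 2 peaks in CD4SP, 1 and 1 in NKT, 1, 1 and 2 in CLP and 0 and 0 in ILCP. Thymus and marrow overlapped (adjusted p = 0.83, exact permutation test). Its start site was open in all thymic libraries, at 36.2% and 29.9% in CD4SP and 52.6% and 51.6% in NKT, and near the end of the list of CLP replicate 3 at 95.8%. The interval 12.2 kb upstream, which also lies in the *Slamf7* window, was open in the 3 CLP libraries at 68.1%, 50.3% and 34.9%, in CD4SP replicate 2 at 83.3%, and in no ILCP or NKT library. With an interval 21.5 kb from the *Slamf7* start it made up the class open in every CLP and no ILCP library, 2 of 37 (5.41%) against 5.97% of all intervals. Without CLP replicate 1 that class held 12 of 37 (32.4%), against 22.2% of all intervals.

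*Sh2d1a*, on chromosome X, had 5 and 3 peaks in CD4SP, 3 and 2 in NKT, 1, 3 and 3 in CLP and 0 and 1 in ILCP. Thymus and marrow overlapped (adjusted p = 0.297, exact permutation test). Its start site was thymus-only, at 17.5% and 20.8% in CD4SP and 28.9% and 33.7% in NKT, and was the highest of its intervals in all 4 lists. An interval 1.7 kb upstream was open in 8 of 9 libraries. There CLP replicates 2 and 3 were the highest by percent, at 33.4% and 35.2%, CLP replicate 1 stood at 63%, the thymic libraries between 56.1% and 88.8%, and ILCP replicate 2 at 88.5%. Counted from the top, CLP replicate 1 (rank 12186) came before CLP replicates 2 and 3 (13883 and 14138). Beyond the 3′ end, an interval 42.7 kb from the start was open in CLP replicates 2 and 3 only, at 36.6% and 43.3%.

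Across the genes, *Slamf6*, *Slamf1* and *Cd48* had more peaks in every thymic library than in any marrow library, 3 of 7 genes, against 12.8% of 17708 genes, and 0 had fewer, against 3.55%. The exact permutation test gave 0 of 17708 genes an adjusted p at or under 0.05, and 30.8% an unadjusted p that low, as had 4 of the 7 genes (*Slamf6*, *Slamf1*, *Cd48* and *Cd84*). The median difference was 2.4 peaks over the 7 genes and 0.45 over all genes. Scaled to the mean number of peaks per library, *Slamf6*, *Slamf1* and *Cd48* reached an adjusted p = 0.0495 in the same exact permutation test, as did 11% of all genes in that direction. Under the other settings the adjusted p of these 3 genes ran from 0.0521 to 0.649 in the exact permutation test. With every list cut to the length of the shortest the difference was 3.25 peaks for *Slamf1*, 2.25 for *Slamf6* and 1.05 for *Cd48*. By the place of the best peak in the window, with a library without a peak set to 100%, *Slamf1* stood at 23.6% ± 10.8 in thymus (SD, n = 4) and 83.1% ± 20.4 in marrow (SD, n = 5), and *Slamf6* at 13.1% ± 3.46 and 34% ± 7.15, each with an adjusted p = 0.0415 by the exact permutation test over 17708 genes. *Cd84*, at 31.2% ± 6.79 and 73.4% ± 20.1, had an adjusted p = 0.0539 by the same exact permutation test. Its libraries did not overlap either, so that thymus was higher for 3 of 7 genes, against 29.5% of all genes, and lower for 0 (7.28%). The adjusted test was passed by 2 of 7 genes in this direction, against 13.9% of all genes, and by 0 in the other (5.21%). An unadjusted p at or under 0.05 was reached by 5 of 7 in the exact permutation test, *Slamf7* and *Sh2d1a* included, against 46.6% of all genes. When any 1 of the 9 libraries was left out, the calls of *Slamf1* and *Slamf6* were lost (adjusted p from 0.0687 to 0.106, exact permutation tests whose smallest unadjusted p rose to between 0.0179 and 0.0286).

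**Figure D4:**
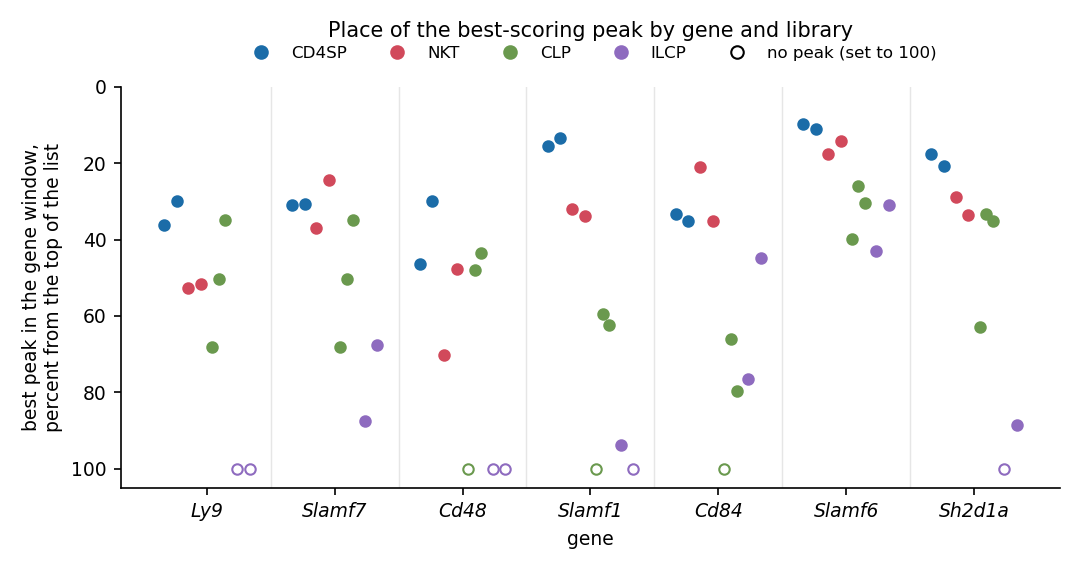
Place of the best-scoring peak in each gene window (vertical axis, percent from the top of the library's list, top of the axis highest) for the 7 genes and 9 libraries. Filled points are libraries coloured by cell type, and open points are libraries with no peak in the window, set to 100. For *Slamf1*, *Cd84* and *Slamf6* all thymic points lie above all marrow points.

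CD4SP had 23 intervals open in both libraries and NKT 21, of which 19 were the same intervals, and the cell types also differed by place in the list. No interval was specific to CD4SP (0 of 37, against 3.46% of all intervals) and 2 were specific to NKT (5.41%, against 4.3%), while leaving out any 1 thymic library gave 2 to 3 for CD4SP (4.9% to 7.12% of all intervals) and 2 to 3 for NKT (5.25% to 8.68%). With 2 libraries on each side the smallest possible p is 0.333, so no gene could be called. Of the 19 intervals open in all thymic libraries, 10 stood lower in both NKT lists than in both CD4SP lists, against 20.6% of 24221 intervals. The opposite order was seen at 0 of 19, against 19.7%, and 9 overlapped. The median difference was 8.2 points over the 19 intervals, against 0.114 points over all. By gene, the best peak of *Ly9*, *Cd48*, *Slamf1*, *Slamf6* and *Sh2d1a* was lower in both NKT lists, 5 of 7 against 11.4% of genes, and in no gene higher (15.3%), or, with 1 thymic library left out, 5 to 6 lower (16.2% to 36.9% of all genes) and 0 to 1 higher (20.5% to 47.8%). *Slamf7* and *Cd84* overlapped. The counts by gene and by interval are not separate results. The best peaks of *Ly9*, *Slamf1* and *Sh2d1a* in every thymic list were among the 10 intervals. Neighbouring intervals were also read from the same libraries and are not independent. With every list cut to the length of the shortest, 8 intervals open in all thymic libraries were left, 4 of them lower in NKT and 0 higher, against 19.7% of all intervals lower. Leaving out 1 thymic library gave 11 to 13 lower and 2 to 4 higher of 19 to 21 intervals, against 29.6% to 42.4% of all intervals lower. The shares of all intervals higher were not counted with cut lists or with a library left out. In numbers of peaks *Slamf7* alone did not overlap, with 1 peak fewer in NKT (1 of 7 lower, against 6.16%, and 0 of 7 higher, against 8.83%). That difference was 0 with every list cut to the length of the shortest, and with 1 thymic library left out 2 to 3 genes were lower (8.96% to 16.4% of all genes) and 0 to 2 higher (11.1% to 23.7%).

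**Figure D5:**
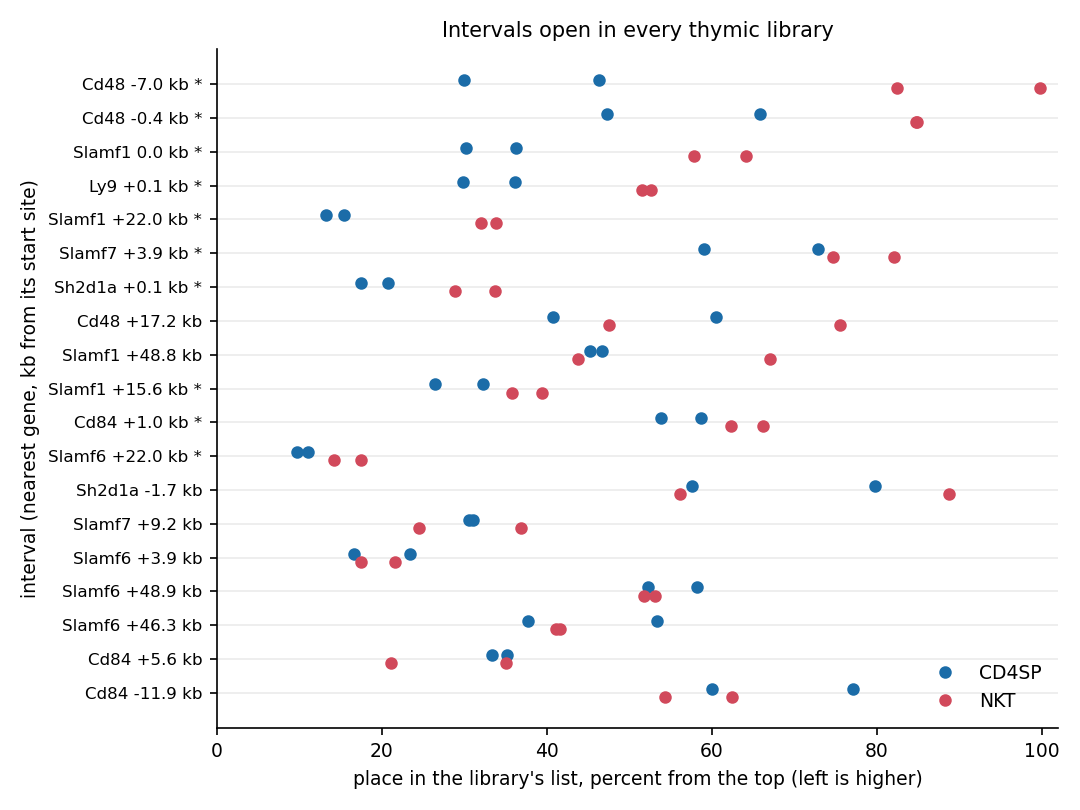
Place in the list (horizontal axis, percent from the top, left is higher) of the 19 intervals open in every thymic library, in the 2 CD4SP and 2 NKT libraries (points). Intervals are ordered by the mean difference, and an asterisk marks the 10 whose NKT points both lie to the right of both CD4SP points. No interval shows the opposite order.

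ILCP had fewer peaks on average than CLP in the windows. Per 10000 peaks of the list CLP had 2.07, 3.85 and 4.24 and ILCP 1.9 and 1.55, so that the libraries did not overlap on this scale. *Ly9* and *Slamf7* had fewer peaks in both ILCP libraries than in any CLP library, 2 of 7 genes against 9.7% of all genes, and 0 had more (4.53%). The interval 12.2 kb upstream of *Ly9*, open in all 3 CLP libraries and in neither ILCP library, lies in the windows of both genes, and without it the libraries of both overlapped. Without CLP replicate 1 it was 7 of 7, against 46.4% of all genes. For the best peak a library without one was set to 100%. This held for both ILCP libraries at *Ly9* and for ILCP replicate 1 at *Sh2d1a*. The best *Ly9* peak in the 3 CLP libraries was again the interval 12.2 kb upstream. On this scale *Ly9* and *Sh2d1a* were lower in both ILCP libraries than in all CLP libraries, 2 of 7 against 19.6%, and 0 were higher (9.5%). This count became 6 of 7, against 67.2%, without CLP replicate 1, and 4 of 7, against 26%, without ILCP replicate 2. In the other direction *Cd84* was higher in ILCP without CLP replicate 2 (1 of 7, against 11.5%) and without ILCP replicate 1 (1 of 7, against 14%). For *Ly9* the difference in peaks was -1.33, and the exact permutation test of 2 against 3 libraries cannot give a p below 0.1. Without CLP replicate 1 the ILCP mean was 12 peaks below that of CLP. With it the CLP mean was 12.3 ± 7.23 (SD, n = 3), against 4.5 ± 0.707 (SD, n = 2) in ILCP. In number of peaks CLP replicate 1, with 4, lay among the ILCP libraries. With every list cut to the length of the shortest, ILCP minus CLP was -2 peaks, against -7.83 with whole lists. The differences NKT minus CD4SP and ILCP minus CLP were also summed and tested by exact permutation within each tissue, whose smallest p is 0.0167. In peaks *Ly9* (-1.83) and *Slamf7* (-2.67) had an unadjusted p at or under 0.05, 2 of 7 against 3.64% of all genes, with the shared interval counted in both. By the best peak *Ly9* (68 points lower) and *Sh2d1a* (62.5 points) did, 2 of 7 against 7.47%, both with ILCP libraries set to 100% for want of a peak. After adjustment 0 of 17708 genes passed either test. The sum was not computed without CLP replicate 1.

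A further 10 genes of the pathway were counted in the same way: the receptors *Cd244a*, *Slamf8* and *Slamf9*, the SAP-related adaptors *Sh2d1b1* and *Sh2d1b2*, the kinases *Fyn* and *Prkcq*, and the phosphatases *Ptpn6*, *Ptpn11* and *Inpp5d*. In thymus 1 of 10 had more peaks than any marrow library, against 12.8% of all genes, and 1 of 10 fewer, against 3.55%. By the exact permutation test 0 of 10 passed after adjustment, and 3 of 10 (*Prkcq*, *Sh2d1b1* and *Ptpn11*) had an unadjusted p at or under 0.05, against 30.8% of all genes. By the best peak, 4 of 10 (*Slamf8*, *Slamf9*, *Sh2d1b2* and *Inpp5d*) stood higher in both NKT lists than in both CD4SP lists, against 15.3% of all genes, and 1 of 10 (*Cd244a*) lower, against 11.4%. The best *Cd244a* peak in the thymic libraries was the one at the *Ly9* start site. With 1 thymic library left out 4 to 7 of 10 stood higher, with 7 without CD4SP replicate 2 (41.7% of all genes), and 1 to 4 lower, with 4 without CD4SP replicate 1 (32.9%). *Prkcq*, the kinase PKCθ downstream of SAP and Fyn, had 20 and 20 peaks in CD4SP, 11 and 14 in NKT, 5, 9 and 8 in CLP and 6 and 6 in ILCP. *Sh2d1b1*, the adaptor EAT-2, had 0 peaks in all 4 thymic libraries, 3, 5 and 3 in CLP and 1 and 1 in ILCP. *Sh2d1b2*, the other adaptor of the list, had 3 peaks in each thymic library, 4, 4 and 3 in CLP and 2 and 2 in ILCP, with the same mean in both tissues. *Cd244a*, the gene of the CD48 receptor 2B4, had 2 and 5 peaks in CD4SP, 2 and 4 in NKT, 1, 4 and 5 in CLP and 0 and 0 in ILCP, with part of its window shared with *Ly9*, and its start site was open in CLP replicates 2 and 3 only. In 5 of 10 genes both ILCP libraries had fewer peaks than every CLP library, against 9.7% of all genes, and in 0 more (4.53%). Without CLP replicate 1 it was 9 of 10, against 46.4%. Among the 5 genes was *Cd244a*, whose only peak in CLP replicate 1 was that of the interval 12.2 kb upstream of *Ly9*. Without this interval, also counted for *Ly9* and *Slamf7*, that library was level with ILCP at *Cd244a*.

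Motif cores in the central 200 bases were described for the 37 intervals beside 71398 intervals of the nuclear chromosomes. Runx matches were present in 14 of 37 (37.8%, against 28.5%), TCF in 9 (24.3%, against 16.6%) and AP-1 in 6 (16.2%, against 6.82%). ETS was matched in 13 (35.1%, against 39%), E-protein in 10 (27%, against 27.4%), GATA in 3 (8.11%, against 9.72%), T-box in 1 (2.7%, against 3.01%) and Egr in 0 (against 3.1%). In the sequences above, the *Slamf7* intron 2 centre held a pair of Runx cores, the *Slamf1* intron 3 centre held 1 Runx core, and the centre of *Slamf1* intron 4 held no match. The NKT interval before *Slamf6* held 2 TCF, 1 E-protein and 1 GATA core, and the one beyond its end 1 TCF and 1 E-protein core. The *Slamf1* promoter held 1 E-protein and 1 ETS core, which 27.7% and 29.5% of 32851 RefSeq promoters of the same length also did. A match describes letters only, and binding was not measured here. The GC content of the central bases had a median of 46% in the members and 49.5% in all intervals.

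The genes most like the receptors in pattern were *Inafm2*, *1700030J22Rik* and *Akap11*, by Pearson's r of the peaks per library (0.995 each over the 9 libraries) with the number in the 6 receptor windows counted once. For *Sh2d1a* they were *Ramp1* (0.958), *Sntb1* (0.958) and *Ncald* (0.951). The libraries share their depth of calling across genes, and these values describe likeness of peak numbers only.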

How the data were processed

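The ATAC-seq libraries were made with a Nextera transposase kit. The authors aligned 50 bp reads to mm10 with bowtie, allowing 2 mismatches, and called peaks with MACS in each library without pooling; Picard and HOMER are also named in the submitters' processing notes. The MACS version and settings and the treatment of duplicates are not given in the sources used here. Each deposited list gives the position of a peak and a score of the peak caller, at least 120 in every list. Scores were used only as ranks within a library. The study's methods give one range of read numbers over its libraries; the depth of each single library is unknown, so a missing peak does not show closed chromatin and no counting interval could be given.

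Peaks sharing at least 1 bp were merged (Python 3.11.15, numpy 2.4.6, pandas 2.3.3). Genes, exons and starts came from GENCODE M21, sequence from GRCm38.p6 (pysam 0.24.0) and promoters from RefSeq, which matched 5 of the 7 genes. Of 21911 protein-coding genes, 17708 had a peak in their window and were tested by exact two-sided permutation of library labels, adjusted by the Benjamini-Hochberg method. The study describes its replicates as biological, and p-values measure the spread between these libraries. The scripts were tested on simulated data.

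The members, the pathway list and the markers were chosen with earlier results of these data known. All member genes, the 10 pathway genes and, per pattern, the 3 genes of highest correlation among those with a mean of at least 2 peaks were named. The alternatives were another window of 5 kb, scaling, the higher-scoring 50% or an equal number of peaks, a looser class rule, the replicate block and each library left out; those for the best peak, the order of thymic intervals and counts of genes were added after the data were seen. A chromatin immunoprecipitation of the same study was not analysed here, and a listed marker is not reported here.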

Additional observations from a re-analysis of the deposited data

How the results depend on the processing

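The number of member peaks was 16.3 higher in thymus than in marrow. The difference was 9.3 with an equal number of highest-scoring peaks per library, 8.2 with the higher-scoring 50% and 10.6 with windows of 5 kb, and 15 to 18.2 with each library left out. NKT minus CD4SP was -1, and became -4 with an equal number, -4 with the higher-scoring 50%, 0.5 with 5 kb and -2 to 0 with each library left out. ILCP minus CLP was -7.83, and became -2 and -2.17 under the first 2 of these, -4.33 with 5 kb and -12 to -5.5 with each library left out. With the replicate number as a block the last 2 differences were -1 and -5.5. The block leaves out CLP replicate 3, which has no ILCP library of the same number. Without that library ILCP minus CLP was -5.5 as well. With so few libraries no gene could be called in these 2 contrasts with or without the block. Deviations of same-numbered libraries correlated at 0.37 in thymus and at -0.06 and -0.04 in marrow, and with 2 pairs each and no label that ties the numbers, they were not treated as pairs. With the block, 11 of the 19 thymic intervals were lower in NKT in both same-numbered pairs and 1 higher, against 33.7% of all intervals lower. The share of all intervals higher was not counted.

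With an equal number of peaks, intervals specific to NKT numbered 0, to CD4SP 2, to ILCP 0 and to CLP 1, and 4 intervals open in every thymic library were lower in NKT. The shares of all intervals specific to a type were not counted at this setting. With 5 kb windows 1 was specific to NKT and 1 to CLP, against 4.3% and 5.97% of all intervals, shares that do not depend on the window. When 1 open library of a type sufficed, NKT had 4, CD4SP 6, ILCP 3 and CLP 15, against 10.8%, 9.27%, 10.6% and 32.4% of all intervals. With each library left out, NKT had 2 to 3, CD4SP 2 to 3, ILCP 2 to 3 and CLP 2 to 12 (12 without CLP replicate 1), 1 to 2 intervals were open in all libraries left, and 10 of 19 thymic intervals lower in NKT became 11 to 13 of 19 to 21, with 2 to 4 higher in place of 0. By gene, *Slamf1* NKT minus CD4SP turned from 0.5 to -1.5, and *Cd84* ILCP minus CLP from -1 to 0.5, with an equal number and with the higher-scoring 50%. With 5 kb windows the best peaks of *Ly9* and *Slamf7* differed between thymus and marrow at an adjusted p = 0.0443 (exact permutation test over genes), as did 12.9% of all genes in that direction. With an equal number they did not pass (exact permutation test, adjusted p = 0.59 and 0.0575). Differences of 1 peak or less between NKT and CD4SP (*Ly9*, *Slamf7*, *Cd48*, *Slamf1*, *Cd84*, *Slamf6*) or ILCP and CLP (*Slamf1*, *Slamf6*) became 0, or left 0, in 14 of 98 gene values under other settings and 5 of 126 with a library left out. The causes were not tested. Of the summaries, 94 of 120 values kept within the spread between replicates or 1.5 times the count. Part of these could hardly move, such as the class open in all marrow and no thymic library, which was 0 throughout. For ILCP minus CLP the spread was 5.14 peaks, so that -12 counted as kept beside -7.83. The depth of each single library, which limits every missing peak, is unknown.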
